A study of Mus musculus with 2 samples.

Results

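Interleukin-1, TNF and inflammasome genes were followed through single-cell RNA sequencing of sorted mouse brain cells. The 10 genes were chosen by symbol from the 32285 genes in the count tables and were all detected: the ligands Il1a, Il1b and Il18, the antagonist Il1rn, the decoy receptor Il1r2, the co-receptor Il1rap, Tnf, and the inflammasome parts Nlrp3, Pycard and Casp1. Brains of 6 male mice carrying the Disc1 locus impairment on both alleles (Disc1 LI/LI, written LI) were pooled into 1 library, and brains of 6 male wild-type littermates (Disc1 WT/WT, written WT) into another, all at 23 weeks of age. CD45 low, CD11b positive cells were sorted after a dissociation in actinomycin D, which blocks new transcription, and unique molecular identifiers (UMIs, 1 for each captured transcript) were counted per gene and cell. The LI allele is inherited and present in all tissues, so that effects arising within and outside the brain's own cells cannot be told apart. Mice within a pool cannot be told apart either. With 1 library for each genotype no difference between genotypes could be tested, and all intervals given here are 95% intervals for counting error only.

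Interleukin-1α and interleukin-1β bind the same receptor, which signals after recruiting the co-receptor encoded by Il1rap. The receptor antagonist encoded by Il1rn occupies that receptor without signalling, and the decoy receptor encoded by Il1r2 captures the ligand. Interleukin-1β and interleukin-18 are made as precursors that caspase-1 cuts after the sensor NLRP3 and the adaptor ASC, encoded by Pycard, have assembled into an inflammasome. Microglia and neutrophils are both known sources of these cytokines, and transcript counts say nothing of cleavage or release.

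Cells were separated on genes outside the set. Cells with at least 0.5% of their UMIs from P2ry12, Gpr34, Tmem119, Siglech, Fcrls and Olfml3 and under 1% from S100a8 and S100a9 were taken as microglia, cells with at least 3% from S100a8 and S100a9 as neutrophils, and the rest as other cells. Of 7032 WT cells, 87.9% (6180) were microglia, 1.65% (116) neutrophils and 10.5% (736) other cells. Of 7817 LI cells, 24.9% (1950) were microglia, 46.3% (3622) neutrophils and 28.7% (2245) other cells. Median UMIs per cell lay between 3640.5 and 6403 over the 6 groups of cells. The other 6 genes of the microglia marker list and the other 11 of the neutrophil list were all detected in their class. Microglia markers were all detected in neutrophils too, and neutrophil markers in microglia. Detection alone therefore does not separate these classes, and the marker levels are compared below. The sort was aimed at microglia, and a library that held more neutrophils than microglia departs from that label. The cut was not a gap: 1852 WT and 768 LI microglia had a share of the 6 microglia genes within 2-fold of 0.5%. Among the neutrophils, 22 of 116 WT and 126 of 3622 LI cells carried such a share of those genes too. Levels are given as the UMIs of a gene per 1000000 UMIs of the same cells, written CPM. Over all cells of a library, Disc1, the targeted gene, was at 19.1 CPM in WT (642 UMIs; 17.7 to 20.6) and 0.461 in LI (22 UMIs; 0.289 to 0.698), in the direction of the labels. The cell make-up of the libraries also differed, and Disc1 was not compared within a class here. The libraries shared 12 cell barcodes.

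The CPM compare one gene between groups of cells, not one gene with another, because 3′ counting captures genes unequally. Between groups, a gene was called higher or lower where its levels differed at least 2-fold and the interval of the log2 ratio left out 0, among genes with at least 10 UMIs in the pair.

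The promoters of 5 genes are shown, because the 2 interleukin-1 ligand genes lie close together on chromosome 2 and had opposite class patterns, while Il1b, Il1r2, Il1rn and Nlrp3 were higher together in one group of neutrophils below. Each stretch is RefSeq sequence of GRCm38.p6, the mm10 build, from 250 bases before to 50 after the annotated start, read 5′ to 3′ along the gene. Capitals mark motif letters found on either strand. The motifs searched were C/EBP (TTGCNNAA, found in 10.8% of all 32817 promoters of this length), PU.1 (GAGGAA, 28.3%), NF-kappaB (GGGNNTTNC, 15.2%), AP-1 (TGANTCA, 7.81%) and the core promoter letters TATAAA (13.6%). No matches overlapped in the stretches shown.
Il1a, chr2:129309923-129310222, minus strand: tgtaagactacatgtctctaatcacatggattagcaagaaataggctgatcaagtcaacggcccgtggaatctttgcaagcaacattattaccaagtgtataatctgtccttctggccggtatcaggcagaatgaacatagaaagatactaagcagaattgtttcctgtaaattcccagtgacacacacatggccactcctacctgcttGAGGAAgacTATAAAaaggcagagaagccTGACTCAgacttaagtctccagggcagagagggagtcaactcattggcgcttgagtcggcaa
Il1b, chr2:129371090-129371389, minus strand: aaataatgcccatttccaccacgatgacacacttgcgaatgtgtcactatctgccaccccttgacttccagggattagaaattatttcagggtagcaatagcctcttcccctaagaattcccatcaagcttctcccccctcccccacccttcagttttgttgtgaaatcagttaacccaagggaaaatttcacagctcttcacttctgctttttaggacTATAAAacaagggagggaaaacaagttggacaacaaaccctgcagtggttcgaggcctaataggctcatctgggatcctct
Il1r2, chr1:40085843-40086142, plus strand: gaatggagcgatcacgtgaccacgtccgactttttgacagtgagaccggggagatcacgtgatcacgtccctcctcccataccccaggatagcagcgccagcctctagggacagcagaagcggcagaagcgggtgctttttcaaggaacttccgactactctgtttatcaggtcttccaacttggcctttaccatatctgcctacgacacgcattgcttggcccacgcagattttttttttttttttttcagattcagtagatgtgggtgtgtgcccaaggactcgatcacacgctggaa
Il1rn, the first of 3 annotated starts, chr2:24336610-24336909, plus strand: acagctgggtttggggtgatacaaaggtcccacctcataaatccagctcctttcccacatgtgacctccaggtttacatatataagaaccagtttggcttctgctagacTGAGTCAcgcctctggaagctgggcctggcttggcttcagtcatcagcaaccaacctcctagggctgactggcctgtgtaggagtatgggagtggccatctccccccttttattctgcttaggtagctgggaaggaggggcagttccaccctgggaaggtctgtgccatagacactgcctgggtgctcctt
Nlrp3, the first of 2 annotated starts, chr11:59542436-59542735, plus strand: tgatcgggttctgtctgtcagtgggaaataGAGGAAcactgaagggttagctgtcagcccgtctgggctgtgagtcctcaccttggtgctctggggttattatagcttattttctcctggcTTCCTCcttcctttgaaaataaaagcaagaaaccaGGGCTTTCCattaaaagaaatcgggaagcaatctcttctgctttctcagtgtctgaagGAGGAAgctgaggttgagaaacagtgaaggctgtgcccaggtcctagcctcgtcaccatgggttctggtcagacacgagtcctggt

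Il1a held PU.1, TATAAA and AP-1 letters beginning 41, 32 and 12 bases before its start, and Il1b held only TATAAA, 31 bases before. At the starts shown, Il1rn held AP-1 letters 141 bases before, Nlrp3 held PU.1 letters at 3 places and NF-kappaB letters 94 bases before, and Il1r2, whose RefSeq start lies inside the longer annotated gene, held none of the 5 motifs. The other starts of Il1rn held NF-kappaB but no AP-1 letters, and the other start of Nlrp3 held NF-kappaB but no PU.1 letters. The Nlrp3 start shown is first in listed order only: it lies inside the annotated gene, downstream of the other start. Which start these cells use was not examined. These matches describe the letters only. The genes themselves span chr2:129299610-129309972 (Il1a), chr2:129364570-129371139 (Il1b), chr1:40074079-40125231 (Il1r2), chr2:24336853-24351494 (Il1rn) and chr11:59541568-59566956 (Nlrp3). The other genes lie at chr16:26581704-26730117 (Il1rap), chr9:50554827-50581840 (Il18), chr17:35199381-35202007 (Tnf), chr9:5298517-5307265 (Casp1) and chr7:127989708-127993867 (Pycard). Exons of Il1a, Il1b, Il1rap and Pycard overlap those of an annotated gene on the opposite strand (Gm14023, Il1bos, Gm20319 and Gm45205), and the sources used here do not say how strand was used in counting.

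The ligands divided between the cell classes. Il1a and Il18 were microglial in level, Il1b was by far higher in neutrophils, and this held in both libraries. Il1a, which encodes interleukin-1α, was at 73.1 CPM in WT microglia (70.0 to 76.3) and 56.2 in LI microglia (51.2 to 61.6). In neutrophils it was at 7.49 in WT (5 UMIs) and 2.13 in LI (46 UMIs). Microglia held 97.4% of all Il1a UMIs in WT and 82.1% in LI, although they made up only 24.9% of the LI cells. A UMI of Il1a was seen in 24.9% of WT and 19.4% of LI microglia, and in 6.35% and 6.00% once each cell was thinned to 1000 UMIs.

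Il18, which like Il1b encodes a caspase-1 substrate, followed Il1a. Its level in microglia was 57.7 CPM in WT (55.0 to 60.5) and 60.2 in LI (55.0 to 65.8). Its level in neutrophils was 7.49 in WT (5 UMIs) and 5.84 in LI (126 UMIs). The log2 ratio of neutrophils to microglia was −3.29 in WT and −4.72 in LI for Il1a, and −2.95 in WT and −3.37 in LI for Il18. For comparison, the 6 microglia markers that did not define the classes stood in neutrophils at 18.9% to 27.0% of their microglial level in WT and at 3.54% to 11.1% in LI. Il1a stood there at 10.3% and 3.79%, and Il18 at 12.99% and 9.70%, below the range of those markers in WT and within it in LI.

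Il1b, which encodes the interleukin-1β precursor, was a neutrophil transcript in level. It was at 2389 CPM in WT neutrophils (1594 UMIs; 2273 to 2509) and 1363 in LI neutrophils (29416 UMIs; 1348 to 1379). In microglia it was at 12.9 in WT (378 UMIs; 11.6 to 14.2) and 51.3 in LI (419 UMIs; 46.5 to 56.4). The neutrophil level was thus 186-fold the microglial one in WT and 26.6-fold in LI. Of the neutrophils, 56.9% in WT and 56.7% in LI had an Il1b UMI, against 2.02% and 8.82% of the microglia. Thinned to 1000 UMIs per cell, the shares were 47.8% and 43.9% of neutrophils and 0.658% and 2.53% of microglia. Over whole libraries the Il1b level was 98.7 in WT and 692.9 in LI, and neutrophils held 48.1% of the Il1b UMIs in WT and 89.0% in LI. In summed RNA from such a sort, more neutrophils and more Il1b per neutrophil could not be told apart. Here the CPM within neutrophils was the lower one in LI.

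**Figure D1:**
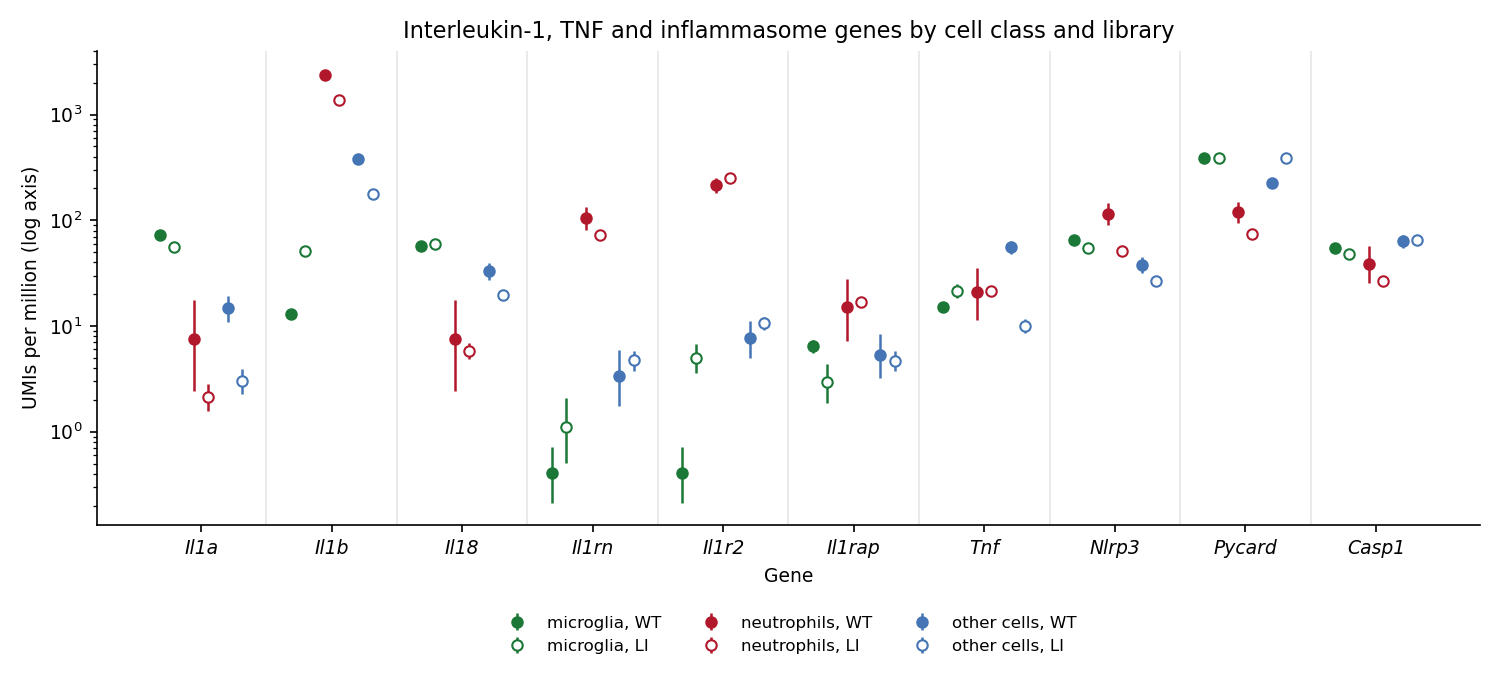
Level of each of the 10 genes in CPM (log axis) in microglia, neutrophils and other cells, with WT as filled and LI as open points and bars for the 95% Poisson interval. Il1b, Il1rn and Il1r2 sit highest in neutrophils of both libraries, and Il1a, Il18 and Pycard lowest there.

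The antagonist and the decoy receptor were highest in neutrophils, as Il1b was. Other cells of WT held 40.5% of the Il1b UMIs but only 12.8% of those of Il1rn and 14.8% of those of Il1r2. Il1rn was at 105 CPM in WT neutrophils (70 UMIs; 81.8 to 133) and 71.8 in LI neutrophils (1550 UMIs; 68.3 to 75.5). In microglia it was at 0.408 in WT (12 UMIs) and 1.10 in LI (9 UMIs). Il1r2 was at 214 in WT neutrophils (143 UMIs; 181 to 252) and 252 in LI neutrophils (5441 UMIs; 245 to 259). In microglia it was at 0.408 in WT (12 UMIs) and 5.02 in LI (41 UMIs). Neutrophils held 74.5% of the Il1rn UMIs and 78.6% of the Il1r2 UMIs in WT, where they were 1.65% of the cells. In LI they held 94.3% and 95.9%. A UMI of Il1r2 was found in 58.6% of WT and 67.0% of LI neutrophils (25.2% and 30.0% after thinning), and one of Il1rn in 39.7% and 32.1% (17.4% and 10.6%).

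Il1rap, whose product completes the signalling receptor, was counted at low levels throughout. It was at 15.0 CPM in WT neutrophils (10 UMIs; 7.19 to 27.6) and 17.0 in LI neutrophils (15.3 to 18.8). In microglia it was at 6.47 in WT (5.58 to 7.45) and 2.94 in LI (1.88 to 4.37). The log2 ratio of neutrophils to microglia was 1.21 in WT (0.13 to 2.12) and 2.53 in LI (1.93 to 3.19).

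Tnf, the tumour necrosis factor gene, showed no such division. It was at 15.1 CPM in WT microglia (13.7 to 16.6), 21.0 in WT neutrophils (14 UMIs; 11.5 to 35.2) and 56.0 in WT other cells (48.4 to 64.3). In LI it was at 21.4 in microglia (18.4 to 24.8), 21.4 in neutrophils (19.5 to 23.5) and 10.1 in other cells (8.67 to 11.7). The intervals of microglia and neutrophils overlapped in each library, and other cells were highest in WT and lowest in LI.

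Of the inflammasome parts, the adaptor gene Pycard differed by class and the other two less. Pycard was at 391 CPM in WT microglia (384 to 399) and 387 in LI microglia (374 to 401), and a UMI of it was found in 78.4% and 76.1% of them. In neutrophils it was at 120 in WT (95.1 to 149) and 74.9 in LI (71.3 to 78.7). Nlrp3, the sensor gene, was at 64.5 in WT and 54.7 in LI microglia, and at 115 (91.1 to 144) in WT and 51.1 (48.1 to 54.2) in LI neutrophils. Casp1, the protease gene, was at 54.6 and 47.7 in microglia and at 39.0 (25.5 to 57.1) and 26.8 (24.6 to 29.1) in neutrophils. For Casp1 the other cells were highest, at 63.0 in WT (55.0 to 71.9), overlapping the microglia, and 65.1 in LI (61.4 to 68.9). The Nlrp3 intervals of microglia and neutrophils were apart only in WT.

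The mixed other cells lay between the classes for most of the set. Il1b was at 380 CPM in WT (360 to 401) and 179 in LI (173 to 185), Il1r2 at 7.63 and 10.6, and Il1rn at 3.39 and 4.74, each above microglia and below neutrophils. Il1a was at 14.7 in WT and 3.01 in LI and Il18 at 32.8 and 19.6, each below microglia and above neutrophils, though the intervals of Il1a overlapped those of neutrophils in both libraries. Pycard was at 223 in WT (208 to 239) and at 385 in LI (376 to 394), where it overlapped the microglia. Nlrp3, at 37.6 and 26.8, was lowest in the other cells in both libraries, and Il1rap, at 5.37 and 4.68, lay below neutrophils in both, with overlapping intervals in WT.

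Neutrophils against microglia, 4 of the 10 genes were called higher in each library (Il1b, Il1rn, Il1r2, Il1rap) and 3 lower (Il1a, Il18, Pycard). Over all genes, 7.81% were called higher and 36.2% lower in WT, and 13.2% higher and 57.5% lower in LI. The median log2 ratio of the set was 0.66 in WT and −0.05 in LI, beside −0.88 and −1.33 over all genes tested. That lower median of all genes bears on Tnf and Nlrp3: scaled by TMM, which sets most genes to no change and moved the ratios by 0.92 in WT and 1.31 in LI, Tnf (1.40 and 1.31) and Nlrp3 (1.76 and 1.21) were called higher in neutrophils of both libraries, and Pycard (−0.78 and −1.06) was called lower only in LI. Casp1, at −0.49 in WT and −0.83 in LI, changed sign under that scaling, to 0.43 and 0.48.

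Among 70 further genes of these pathways, in 7 lists, 12 of 59 tested were higher and 18 lower in neutrophils in WT, and 13 and 27 of 60 in LI, with 11 higher and 17 lower in both. Beside the 7.81% and 36.2% of all genes in WT and the 13.2% and 57.5% in LI, the lists held a larger share of higher and a smaller share of lower genes. Higher in both were the IL-18 receptor chains Il18rap (log2 ratio 6.49 in WT and 5.45 in LI) and Il18r1 (3.03 and 3.12), and Irak3 (3.07 and 3.01), which encodes an inhibitory kinase of the receptor pathway. Il1f9, the gene of interleukin-36γ, had 63 UMIs in WT neutrophils (94.4 CPM) and none in WT microglia, and was at 114 in LI neutrophils and 1.35 in LI microglia. Nfkbiz (3.89 and 3.03) and Zfp36 (1.58 and 1.12), both feedback regulators of inflammatory transcripts, Ltb (2.84 and 1.82), Birc3 (1.60 and 1.40), Pstpip1 (5.53 and 4.09) and Gsdme (1.77 and 1.29) were also higher. The remaining one, Nlrp12, was at 25.5 in WT neutrophils and listed at 0 UMIs in WT microglia. Microglia were higher for the ATP-gated channel genes P2rx7 (−2.43 and −4.21) and P2rx4 (−3.37 and −3.18), and for the release channel gene Panx1 (206 UMIs against 0 in WT, log2 ratio −3.01 in LI). They were also higher for the sensors Nlrp1b (−3.58 and −4.11), Aim2 (−2.56 and −3.41) and Naip6 (−2.62 and −2.03), for Il1rl2 (−3.51 and −3.04), and for Irak1 (−1.65 and −1.36) and Map3k7 (−1.41 and −1.39). Of the TNF list, Casp8 (−1.63 and −2.46), Adam17 (−1.61 and −2.63), which encodes the protease that sheds TNF, and Tnfrsf1b (−1.61 and −1.32), a TNF receptor gene, were lower in neutrophils, as was Nfkb1 (−1.11 and −1.36). The median of all genes was −0.88 in WT and −1.33 in LI. In LI the ratios of Irak1, Map3k7, Tnfrsf1b and Nfkb1 lay close to it, so they are not set apart from genes in general.

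Il1b was not spread evenly over the neutrophils. Neutrophils were divided at 1% of UMIs from Ngp, Ltf, Camp and Chil3, granule genes that immature neutrophils transcribe and mature ones do not. In WT, 66 cells were granule-low and 50 granule-high, and in LI, 1982 and 1640. Il1b was at 6260 CPM in granule-low and 204 in granule-high WT cells, and at 3960 and 114 in LI, a ratio of 30.7-fold and 34.8-fold. An Il1b UMI was present in 90.9% of granule-low and 12% of granule-high WT cells, and in 84.5% and 23.0% in LI. The 87 Il1b UMIs of the WT granule-high cells came almost wholly from 5 cells (86 UMIs), 1 of which held 41, and without that cell their level was 110.

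Nlrp3 was divided the same way. It was at 253 CPM in granule-low and 37.5 in granule-high WT cells (log2 ratio 2.76; 1.94 to 3.65), and at 140 and 8.37 in LI (4.06; 3.79 to 4.35). Il1r2 was at 378 and 122 in WT (1.63) and at 514 and 126 in LI (2.02). Il1rn was at 166 and 70.3 in WT (1.24) and at 148 and 35.2 in LI (2.07). Granule-high cells held more RNA, with a median of 7155 UMIs in WT and 7051 in LI, against 2742.5 and 2755 in granule-low cells, so the mean UMIs per cell are the second view of the same counts. A granule-low cell held on average 22.8 Il1b UMIs in WT and 14.0 in LI, and a granule-high cell 1.74 and 1.01. For Nlrp3 the means were 0.924 against 0.320 in WT and 0.495 against 0.0744 in LI. For Il1r2 they were 1.38 against 1.04 in WT and 1.82 against 1.12 in LI, and for Il1rn 0.606 against 0.600 and 0.523 against 0.313. Il1b and Nlrp3 were therefore several times higher per cell as well as in CPM in granule-low cells, whereas Il1rn in WT was nearly equal per cell. With the 13 neutrophil marker genes taken out of the totals, a choice made after seeing the data, the log2 ratios were 4.57 and 4.71 for Il1b, 2.38 and 3.65 for Nlrp3, 1.26 and 1.61 for Il1r2, and 0.87 (no longer called) and 1.66 for Il1rn.

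Among genes with at least 10 UMIs, the others differed less in CPM across this division than Il1b and Nlrp3 did, and per cell several of them were lower in granule-low cells. In WT, Il18 had a log2 ratio of 2.83 (−0.51 to 8.45) from 1 UMI in granule-high and 4 in granule-low cells, too few for a call. In LI, Il1a (1.83), Il18 (1.56) and Il1rap (1.28) were also called higher in granule-low cells, from levels of at most 28.1 CPM. Per cell the LI means of granule-low against granule-high cells were 0.0146 against 0.0104 for Il1a, 0.0373 against 0.0317 for Il18 and 0.0994 against 0.103 for Il1rap, so Il1rap was not higher by that view. Casp1 (0.60 in WT, 0.26 in LI), Tnf (0.41 and −0.55) and Pycard (−0.96 and −0.13) were not called, and Pycard was called lower in WT under TMM, at −1.23. Per cell these genes had lower means in granule-low cells, in LI 0.212 in granule-high against 0.0575 in granule-low cells for Tnf, 0.684 against 0.2497 for Pycard and 0.224 against 0.106 for Casp1. In WT the same means were 0.160 against 0.0909 for Tnf, 1.24 against 0.273 for Pycard and 0.280 against 0.182 for Casp1. In CPM, 4 of 8 genes tested in WT and 7 of 10 in LI were called higher and none lower, beside 11.9% and 16% of all genes higher and 4.86% and 5.51% lower. The median log2 ratio of the set was 0.92 in WT and 1.70 in LI, beside 0.29 and 0.27 over all genes. Of the further pathway genes, 12 of 40 tested in WT and 20 of 59 in LI were higher in granule-low cells and 0 lower. They included Il1f9 (2.26 and 2.23), Nfkbiz (1.12 and 1.78) and Zfp36 (1.46 and 1.51).

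**Figure D2:**
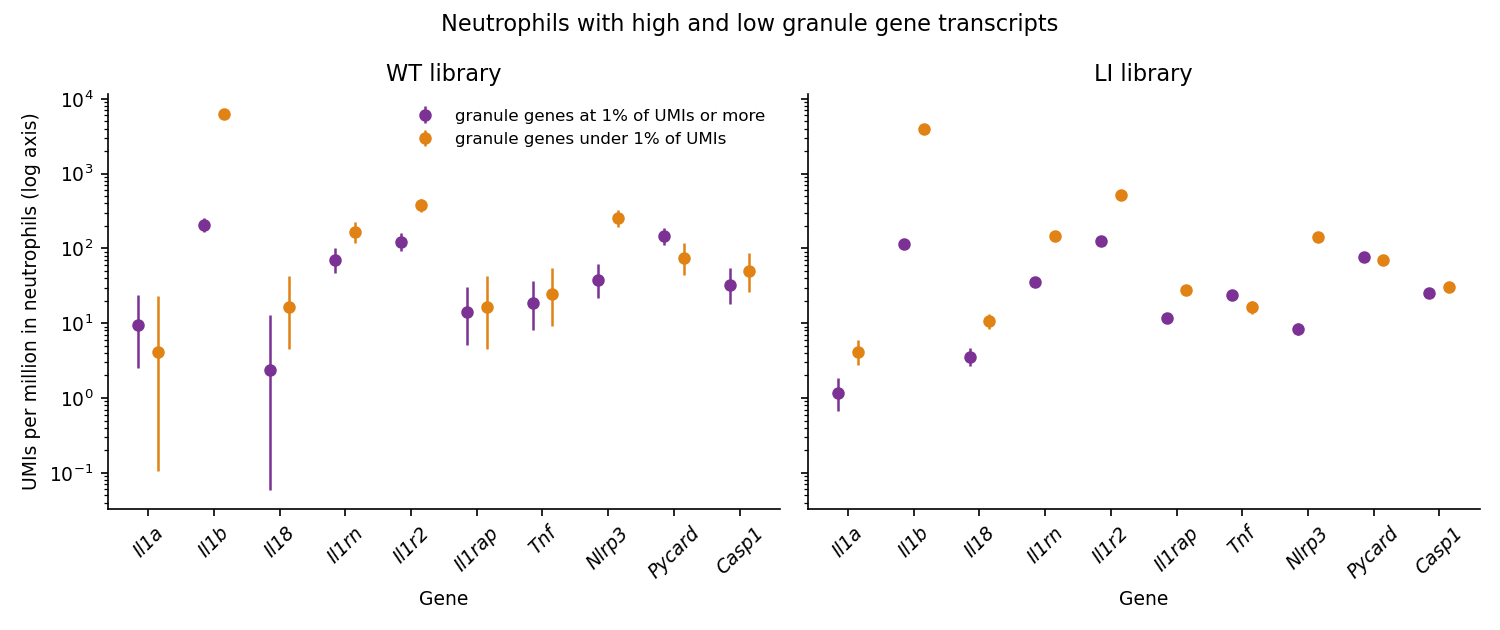
CPM (log axis) of the 10 genes in granule-low and granule-high neutrophils of WT and LI, with 95% Poisson intervals. Il1b separates the cells most, at 6260 against 204 in WT and 3960 against 114 in LI, and Nlrp3, Il1r2 and Il1rn separate them in the same direction.

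Cells with Nlrp3 were also cells with Il1b. With neutrophils thinned to 1000 UMIs, an Il1b UMI was found in 88.9% of WT cells with an Nlrp3 UMI (16 of 18) and in 40.2% of those without. In LI the shares were 82.3% (270 of 328) and 40.1%. Among cells with and without Il1r2 they were 65.5% and 41.9% in WT, and 68.1% and 33.5% in LI. Among cells with and without Il1rn they were 75.0% and 42.1% in WT, and 65.8% and 41.3% in LI. These are descriptions of cells from 1 library each, and the granule division above runs through all of them.

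The genotypes were then set side by side within microglia, the cells the study asked about. Of the 10 genes, 3 were called higher in LI (Il1b, Il1rn, Il1r2) and 1 lower (Il1rap), beside 2.92% and 3.4% of 13137 genes. The median log2 ratio of LI to WT was 0.02 for the set and −0.17 over all genes, whose 5th and 95th percentiles were −1.01 and 0.80. Il1b was 3.99-fold higher (log2 ratio 2.00; 1.79 to 2.20) and Il1r2 12.3-fold (3.62; 2.66 to 4.68). For Il1rn the log2 ratio was 1.43 (0.01 to 2.80), from 12 UMIs in WT and 9 in LI. Il1rap stood at −1.14 (−1.82 to −0.52), and the median of the 200 genes nearest to it in length was −0.44. Under TMM, which moved all ratios of this comparison by 0.18, Il1rap was at −0.96 and was not called. The call of Il1rn, at or near 1 UMI in most cells that had it, was kept under 10 of 16 alternatives. The 3 genes called higher were also called higher in neutrophils than in microglia in both libraries, as was Il1rap, which was called lower here.

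The other 6 genes lay closer together between the genotypes. Tnf had a log2 ratio of 0.50 (0.24 to 0.76). Il18 stood at 0.06 (−0.09 to 0.21) and Pycard at −0.02 (−0.07 to 0.04), or at 0.16 under TMM. Il1a stood at −0.38 (−0.53 to −0.23), Nlrp3 at −0.24 (−0.39 to −0.09) and Casp1 at −0.20 (−0.36 to −0.03). Thus neither the microglial ligands nor the inflammasome parts reached 2-fold in either direction. Of the further pathway genes, 2 of 59 were called higher and 2 lower. Il1f9 had 0 UMIs in WT microglia and 11 in LI, and Pstpip1 stood at 1.40 (0.80 to 1.98), while Il1rl1 stood at −1.48 (−2.47 to −0.62) and Naip6 at −1.28 (−1.69 to −0.90). Il1f9 and Pstpip1 were also called higher in neutrophils than in microglia in both libraries. The part of neutrophil RNA in their calls here was not tested.

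**Figure D3:**
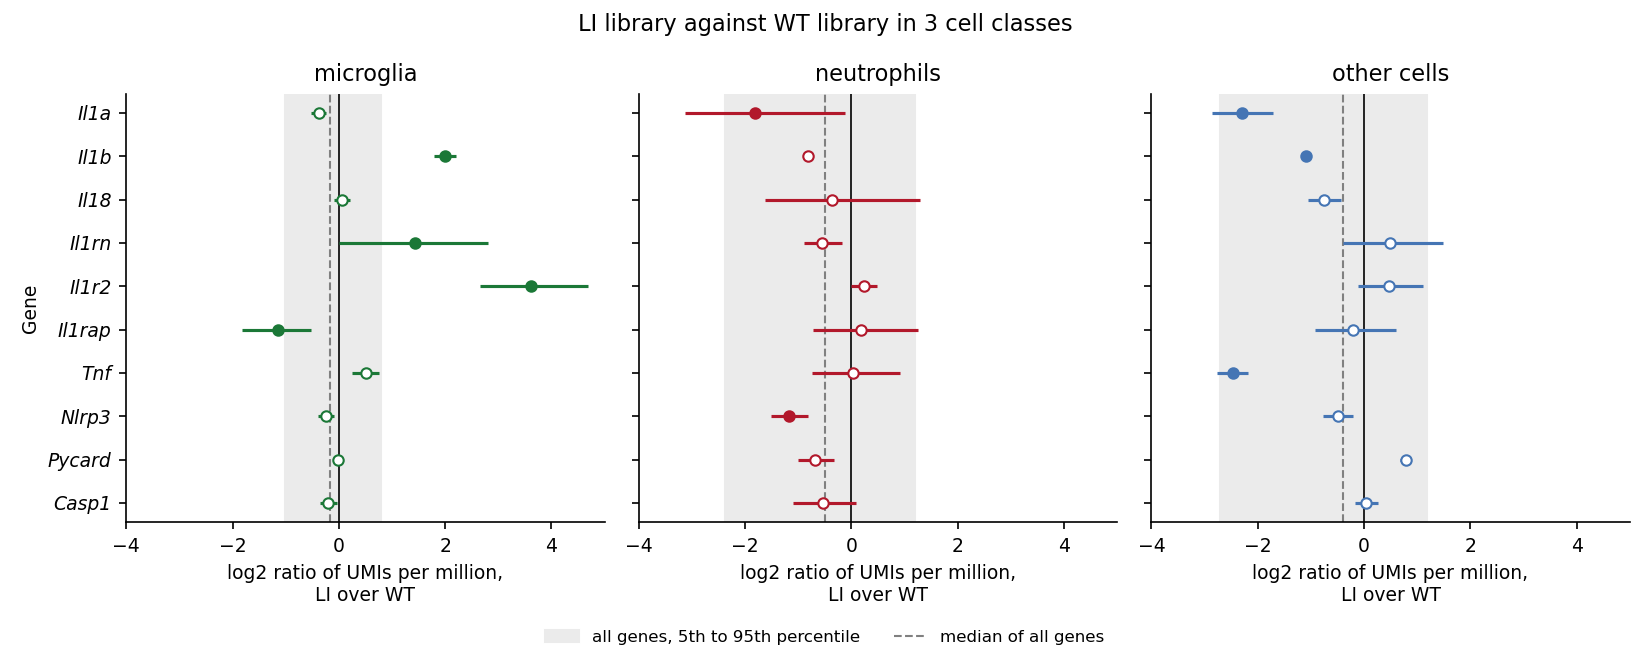
Log2 ratio of LI to WT in CPM for the 10 genes in microglia, neutrophils and other cells, with 95% Clopper-Pearson intervals, filled points for genes called and open points for the others. The solid line marks a ratio of 0, the dashed line the median of all genes tested and the grey band their range without the lowest 5% and the highest 5%. In microglia Il1b, Il1rn and Il1r2 lie over 2-fold higher in LI and Il1rap over 2-fold lower, and in neutrophils and other cells no gene lies 2-fold higher.

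Neutrophil transcripts were also more frequent in LI microglia. The 13 neutrophil markers, none of them at 0 in either library, summed to 43.4 CPM in WT microglia and 1345 in LI microglia. The 11 that did not define the classes stood in WT microglia at 0.0114% to 0.0605% of their neutrophil level (median 0.0226%) and in LI microglia at 0.437% to 1.58% (median 0.776%). Il1b stood at 0.538% in WT and 3.76% in LI, Il1rn at 0.389% and 1.53%, and Il1r2 at 0.191% and 1.99%. In LI, Il1rn was within the range of the markers, Il1r2 somewhat above it and Il1b further above, with all neutrophils as the reference. Per 100 UMIs of the 11 markers, LI microglia held 7.80 Il1b UMIs, LI granule-low neutrophils 7.38 and all LI neutrophils 1.31. For Il1r2 these values were 0.763, 0.957 and 0.242, and for Il1rn 0.168, 0.276 and 0.0691. In LI the excess over neutrophils thus depends on the reference. In WT each of these genes was higher in microglia than in granule-low neutrophils by this measure. Cells placed by T and NK cell markers, a lineage not known for Il1b, had an Il1b UMI in 0 of 64 cells in WT (median 4222.5 UMIs), which allows a share of up to 4.69% at a floor of 3 counts and 5.60% by the exact interval. In LI 11.5% of them (15 of 131; 6.55% to 18.2%; median 3771 UMIs) had exactly 1 UMI. The 8.82% of LI microglia with an Il1b UMI (median 3787.5 UMIs) did not exceed that share, and the 2.02% of WT microglia fell under what 64 cells could show, so neither share alone is read as expression. At 2 or more Il1b UMIs there were 0 of the 131 LI cells with T and NK markers (exact upper limit 2.78%) and 26 of 1950 LI microglia (1.33%; 0.873% to 1.95%), and 2 of these microglia had 50 or more. Among LI cells with under 3 Il1b UMIs, microglia held 3.25 of them per 100 UMIs of the 11 markers. Those placed by T and NK markers held 4.24, and those placed by B cell markers 2.33. Of the 57 LI cells placed by B cell markers, 4 (7.02%; 1.95% to 17.0%) had an Il1b UMI. LI microglia thus lay between these 2 groups by both measures. With Srgn, Siglech, F13a1 and Chil3 left out of the lists, 132 LI cells were placed by T and NK markers. Of these, 16 had an Il1b UMI, and the cell with the most held 17. The 0 at 2 or more UMIs therefore depends on the placing. In microglia without any S100a8 or S100a9 UMI the log2 ratio of Il1b was 0.89 (−0.12 to 1.75) and was not called. That of Il1r2 was 3.94 (1.45 to 5.90) and was called, and that of Il1rn was 2.22 (−3.21 to 5.00) and was not. This filter left out a larger share of LI than of WT cells. The median share of UMIs from S100a8 and S100a9 was 0.0639% in LI and 0% in WT microglia. Lost counts therefore bear on these ratios, and a missing call does not show equal levels.

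**Figure D4:**
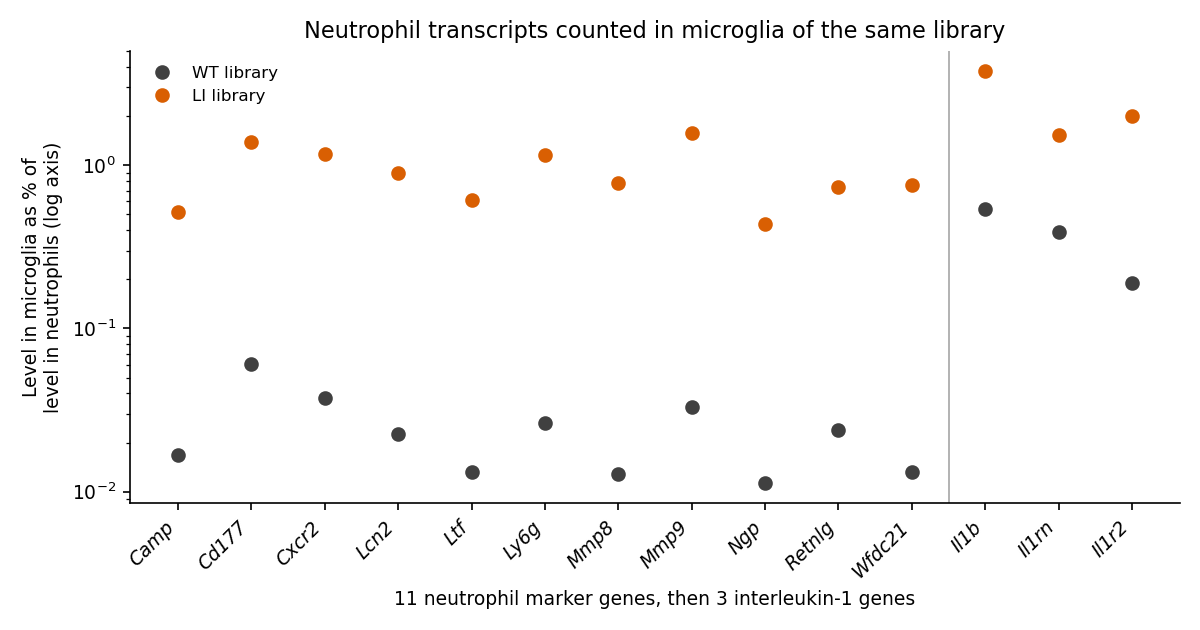
Level in microglia as a percent of the level in all neutrophils, granule-low and granule-high together (log axis), for 11 neutrophil markers and for Il1b, Il1rn and Il1r2, in WT and LI. The markers lie between 0.0114% and 0.0605% in WT and between 0.437% and 1.58% in LI, and Il1b lies above them in both, at 0.538% and 3.76%.

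The Il1b UMIs of microglia were concentrated in few cells. In WT, 23 of 6180 microglia (0.372%; 0.236% to 0.558%) had 3 or more Il1b UMIs and held 69.8% of all Il1b UMIs of the class, and 9 had 10 or more. In LI, 13 of 1950 (0.667%; 0.355% to 1.14%) had 3 or more and held 58.9%, and 7 had 10 or more. Cells with a single UMI numbered 90 in WT and 146 in LI. The share of cells with 3 or more thus had overlapping intervals in the 2 libraries, and the single-UMI cells made up most of the difference in the share of cells. This holds for the share of cells and not for the level, since most Il1b UMIs lay in the cells with 3 or more. The top cell held 38 Il1b UMIs in WT and 79 in LI. Without it the microglial level was 11.6 CPM in WT (10.4 to 12.9) and 41.6 in LI (37.3 to 46.3). The cells with 3 or more differed from the rest in other genes. Their MHC class II list was at 15611 CPM in WT and 5889 in LI, against 1296 and 1510 in microglia without Il1b, and immediate early genes were at 4720 and 5684 against 1288 and 1659. The MHC class II list includes Siglech, one of the genes that defined microglia, at 924 in WT and 872 in LI microglia. Low values of the list may therefore be mostly Siglech. The libraries differed in the cells with 10 or more Il1b UMIs, whose MHC class II list was at 21406 in the 9 WT cells and 942 in the 7 LI cells. The monocyte list of these cells was at 655 in WT and 334 in LI, and their border macrophage list at 485 and 0. In LI, these 7 cells also held 11 of the 41 Il1r2 UMIs of microglia. The neutrophil markers that did not define the classes were at 1610 CPM in them, against 659 in LI microglia without Il1b. Doublets were not removed, and their part in these cells was not tested.

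**Figure D5:**
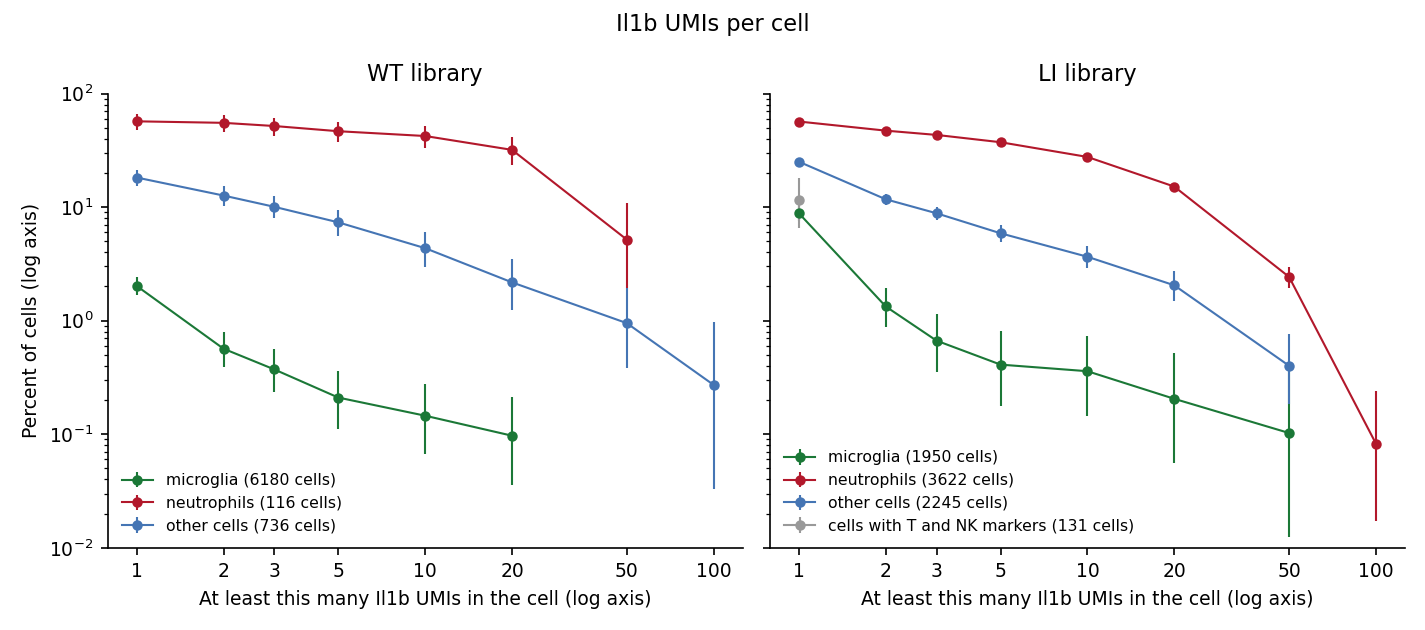
Share of cells (percent, log axis) with at least the number of Il1b UMIs on the x axis, in microglia, neutrophils and other cells of WT and LI and in LI cells placed by T and NK cell markers, with bars for the 95% exact binomial interval and shares of 0 not drawn. At 1 UMI LI microglia lie at 8.82% and WT microglia at 2.02%, and at 3 UMIs they lie at 0.667% and 0.372%.

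Within neutrophils, 0 of the 10 genes were called higher in LI and 2 lower, beside 2.29% and 15% of 11477 genes. The median log2 ratio was −0.54 for the set and −0.49 over all genes, so the set as a whole lay where neutrophil transcripts lay in general. Nlrp3 stood at −1.18 (−1.51 to −0.82) and Il1a, from 5 UMIs in WT, at −1.81 (−3.14 to −0.12). Under TMM, which moved the ratios by 0.49, Nlrp3 was at −0.68 and Il1a at −1.32, and neither was called. Il1b stood at −0.81 (−0.88 to −0.74), Pycard at −0.68, Il1rn at −0.55, Casp1 at −0.54 and Il18 at −0.36 (0.13 under TMM). Microglia markers were lower in LI neutrophils too: the list of 12, none at 0, summed to 5643 CPM in WT and 1141 in LI neutrophils. Its part in the lower Il1a, Il18, Pycard, Nlrp3 and Casp1 was not tested. An alternative that left out neutrophils carrying more microglia-gene UMIs is included in the ranges that follow and is not given apart. Across all alternatives the ratio lay between −1.37 and −0.51 for Nlrp3 and between −1.82 and −1.27 for Il1a. For Il18, Pycard and Casp1 it reached 0.90, 0.47 and 0.08. Tnf (0.03), Il1rap (0.18) and Il1r2 (0.23) stood above 0. In the same subset of neutrophils, Il1b was at −0.66 in granule-low and −0.84 in granule-high cells, and Nlrp3 at −0.86 and −2.16. Among the further pathway genes 0 of 59 were called higher and 12 lower.

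In the other cells, 0 of 10 were called higher in LI and 3 lower (Il1a, Il1b, Tnf), beside 5.05% and 24.3% of 13217 genes, and the median log2 ratio was −0.34 for the set and −0.39 over all genes. Il1b stood at −1.09 (−1.18 to −0.99), Tnf at −2.47 (−2.77 to −2.17) and Il1a at −2.29 (−2.86 to −1.71). The list of 12 microglia markers summed to 5894 CPM in WT and 1426 in LI other cells. A share of the microglia-defining genes within 2-fold of the cut was found in 263 of 736 WT and 189 of 2245 LI cells. The part of microglial transcripts and of cells near the cut in the lower Il1a was not tested. Il1b was not called under TMM, at −0.71, and with microglia cut at 1% and neutrophils at 6% its ratio turned to 0.61. Pycard, at 0.79, was called higher under TMM, at 1.16. These cells were a mixture that differed between the libraries. Placed by marker lists, WT held 314 cells with MHC class II genes leading, 84 with monocyte genes, 101 with border macrophage genes and 64 with T and NK cell genes. LI held 444, 1329, 16 and 131.

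Within cells placed by MHC class II genes and by monocyte genes the level of Il1b was lower in LI too. It was at 616 CPM in WT and 255 in LI in the former (log2 ratio −1.27), and at 339 and 156 in the latter (−1.12). In the former, 5 cells held 446 of the 1004 Il1b UMIs in WT and 229 of the 775 in LI. In the latter, 5 cells held 86 of the 193 in WT and 317 of the 1663 in LI. In unplaced cells the Il1b level went the other way, at 238 in WT and 1676 in LI (2.81). There 3 WT cells held all 108 UMIs, and 5 LI cells held 245 of the 364. Cells placed by T and NK markers also went that way, with 0 Il1b UMIs in WT and 15 in LI (27.0 CPM). Tnf was lower in LI in the MHC class II cells (52.8 against 18.4; −1.52) and the monocyte-marker cells (26.4 against 8.75; −1.59). It was also lower in cells placed by T and NK markers (137 against 18.0), where 1 WT cell held 30 of 42 UMIs and the WT level without it was 39.4 (20.3 to 68.8). Casp1 was at 118 in WT and 84.1 in LI in cells placed by border macrophage genes, of which LI had 16, and at 84.4 and 75.5 in those placed by monocyte genes. The rest of the other cells, placed by progenitor (21 in WT and 151 in LI), B cell (5 and 57) and erythroid genes (3 and 12), were too few in WT to compare.

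Across 7 groups of cells in each library (14 values, log2 of the level plus 10), genes that followed Il1b most closely among 5381 were Ptgs2 (Pearson r 0.944), the cyclooxygenase-2 gene, Dusp1 (0.918), a phosphatase gene of the MAP kinase pathway, and Ccrl2 (0.907). For Il18 they were Nfix (0.967), Tax1bp3 (0.963) and Cnpy3 (0.960). For Tnf they were Pdcd1 (0.783), Cd40lg (0.775) and Tsnax (0.759), and without the 1 value for WT T and NK cells the same genes were at 0.324, −0.01 and 0.654. The 14 values share 2 libraries and the depth of their cells, so these correlations only describe the set.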

How the data were processed

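Gene-by-cell UMI counts from 10x Genomics 3′ libraries were used as the authors deposited them, without normalization, for 1 WT library (7038 barcodes, 33601957 UMIs) and 1 LI library (7834 barcodes, 47731571 UMIs). Per the file headers they were made with Cell Ranger 6.1.2. The submitters' processing notes name mm10, STAR and Seurat 3.0.1. The labels name droplet chips B and G without saying which served which library. Groups were taken from the sample labels.

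Barcodes were kept when they held 200 genes or more and no more than 10% of their UMIs were mitochondrial (7032 WT and 7817 LI, leaving out 6 and 17), and cells were put in classes by the marker shares given above. UMIs were summed over the cells of a class and divided by the class total. Poisson, binomial and Clopper-Pearson intervals were exact (scipy 1.17.1, numpy 2.4.6, pandas 2.3.3, Python 3.11.15), and figures were drawn with matplotlib 3.10.9. These intervals reflect the counting of UMIs alone. Since each genotype had a single library, nothing was tested and cells did not serve as replicates. TMM factors came from edgeR 4.0.16 in R 4.3.3, and no edgeR test was run. For shares, cells were thinned to 1000 UMIs and shallower ones were left out (104 microglia, 1 neutrophil and 51 other cells in WT; 17, 4 and 40 in LI). Doublets were not removed; one alternative left out the 5% of cells with the most UMIs. Other cells were placed by the marker list with the largest share of UMIs, given at least 3 UMIs from at least 2 of its genes. Interleukin-36 genes were matched to older symbols, such as Il1f9. Ratios and intervals were tested on simulated counts.

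The 10 genes, the marker and pathway lists and the cuts were chosen with earlier results of these data known. Named were all 10 genes, pathway genes called between genotypes in microglia or called alike in both libraries between neutrophils and microglia (at most 3 for each list and direction), and the 3 genes with the pattern most like each of Il1b, Tnf and Il18. Alternatives numbered 14 planned and 2 added after seeing the data, and placing other cells without Srgn, Siglech, F13a1 and Chil3 was a further addition.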

Additional observations from a re-analysis of the deposited data

Results flagged for a closer look

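Il1b differed between WT and LI in opposite directions in separate groups of cells, with a log2 ratio of LI to WT of 2.00 in microglia and −1.09 in other cells. The difference between these values was not tested, since each genotype was 1 library. In other cells the call was kept under 9 of 16 alternatives. The 10 other cells with the most Il1b UMIs held 51.2% of those of the class in WT and 19.5% in LI. Neutrophil markers summed to 43.4 CPM (UMIs of the list per 1000000 UMIs of the cells) in WT and 1345 in LI microglia. In microglia without S100a8 or S100a9 UMIs the log2 ratio of Il1b was 0.89 (−0.12 to 1.75), after a filter that left out a larger share of LI than of WT cells. An Il1b UMI was found in 8.82% of LI microglia and in 11.5% of LI cells with T and NK markers. There were 2 or more in 1.33% of the former and in none of the latter (exact upper limit 2.78%). With Srgn, Siglech, F13a1 and Chil3 left out of the placing, an LI cell with T and NK markers held 17.

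UMIs of the 10 genes were also counted in barcodes that the cell filter left out: 5 in the 6 WT barcodes (of 10199 UMIs) and 6 in the 17 LI barcodes (of 41737 UMIs).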

How the results depend on the processing

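No paired analysis was possible because each genotype was 1 library, and no replicate could be left out. The ratios of the 10 genes were recomputed under 16 alternatives, 2 of them chosen after seeing the data. Of 786 values, 606 lay within the interval of the reported ratio, 179 did not, and 1 called value changed sign: Il1b between genotypes in other cells, 0.61 with microglia cut at 1% and neutrophils at 6%. The call of Il1b in microglia was kept under 15 of 16 alternatives and that of Il1r2 under 16 of 16, and those of Il1rap and Il1rn under 12 and 10. In other cells the calls of Tnf and Il1b were kept under 16 and 9.

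Counts of genes called changed by over 1.5 times as follows. In neutrophils the 2 genes called between genotypes became 0 under TMM, median-of-ratios scaling, thinning to 1000 UMIs, leaving out the 5% of cells with the most UMIs, or totals without the 13 neutrophil markers, and 1 with each cell weighted equally. In microglia the 4 became 2 after thinning and 1 in microglia without S100a8 or S100a9 UMIs. In other cells the 3 became 5 without the 10 cells with the most UMIs of each gene.

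Depth limits Il1rn and Il1r2 in microglia and Il1a and Il18 in WT neutrophils, with 5 to 12 UMIs in the smaller count of each pair. Library, chip and genotype cannot be told apart.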
